A study of Mus musculus with 6 samples.

Results

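Fatty acid desaturases and elongases are the membrane enzymes that place double bonds in fatty acyl chains and lengthen them. Genes of both families were measured in liver of Mul1(+/+) and Mul1(−/−) mice on a high-fat diet (HFD). The genes were taken by symbol from the table of the series and were 6 of its 3542 genes: the desaturases Scd1, Fads1, Fads2 and Fads6 and the elongases Elovl3 and Elovl7. Each symbol matched 1 row. In Mul1(−/−) HFD-liver, Scd1 and Elovl3 fell to 8.53% and 12.5% of their means in Mul1(+/+) HFD-liver, and Elovl7 rose 6.12-fold from a low level. Fads1, Fads2 and Fads6 had means of 34.3%, 26.7% and 39.2% of those in Mul1(+/+) HFD-liver but missed the threshold of the test.

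Dietary and newly made saturated fatty acids reach the endoplasmic reticulum as acyl-CoA. There, Scd1 converts stearoyl-CoA to oleoyl-CoA, the main monounsaturated fatty acid of liver triglyceride, while Fads2 and then Fads1 desaturate the essential fatty acids of the diet on the way to arachidonic acid and docosahexaenoic acid. Elovl proteins catalyse the condensation step of each round of chain elongation, and other enzymes complete the round. Liver expression of Scd1, Fads1 and Fads2 is known to be driven by the transcription factor SREBP-1c, and that of Elovl3 to follow the circadian clock and to be higher in males.

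The 6 libraries were made by mRNA-seq from liver of 3 Mul1(+/+) mice and 3 Mul1(−/−) mice, all fed the HFD for 16 weeks from 8 weeks of age. Mul1 encodes an E3 ligase of the outer mitochondrial membrane, and the Mul1(−/−) mice lack it in the whole body, so that the liver was not the only tissue deleted. The study used mice of both sexes, and the labels do not give the sex of the 6 mice. The labels name hepatocytes as the cell type, although pieces of liver tissue were used for the libraries. Numbers given below are normalized read counts, that is, reads divided by 1 factor per library. The table holds only genes that the authors' own test on these same libraries had already called, so that p-values adjusted over it are no independent evidence and a gene had to differ between the groups to be in it. A gene is called here when limma's adjusted p is under 0.01 and the absolute log2 fold change is above 1, and "rose" and "fell" are kept for called genes. For 3 mice against 3, the smallest p that an exact two-sided permutation test allows is 0.1, and p was 0.1 for each of the 6 genes.

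The targeted gene, Mul1 (ENSMUSG00000041241), reached 3172, 3232 and 3423 normalized counts in the Mul1(+/+) libraries (replicates 1, 2 and 3, an order kept throughout) and 1037, 965 and 1753 in the Mul1(−/−) libraries. The groups did not overlap, and Mul1(−/−) replicate 3 held the most Mul1 mRNA of its group. The Mul1(−/−) mean was 38.2% of the Mul1(+/+) mean, and Mul1 itself was not called (adjusted p = 0.0126 from limma). Which bases of the gene were deleted is not given in the sources used here, so whether the remaining reads lie outside them was not tested. Other features of the libraries moved with genotype. The genes of the mitochondrial genome made up 10.7% to 13.4% of the summed normalized counts in the Mul1(+/+) libraries and 49.4%, 22.8% and 15.4% in Mul1(−/−) replicates 1 to 3. Of the marker genes looked up, 3 of 11 hepatocyte genes were in the table and had lower means in Mul1(−/−) HFD-liver, with sums of 181863 to 290796 in Mul1(+/+) and 105171 to 106048 in Mul1(−/−) libraries. Among 6 cholangiocyte (bile duct cell) genes, 4 were in the table and had higher means, with sums of 1292 to 1891 against 4878 to 5100. The single stellate cell gene in the table, of 6, was Dcn, with 3452 to 4335 against 5569 to 24011, and 2 of 5 endothelial genes had sums of 3352 to 3910 against 1184 to 2140. None of the 7 macrophage, 7 adipocyte and 4 lymphocyte genes was in the table. No marker in the table was at 0 in a whole group. Without Mul1(−/−) replicate 1, which had the largest mitochondrial share, the counts of desaturase and elongase genes called were as with it. Replicates 2 and 3, with shares of 22.8% and 15.4%, both above the Mul1(+/+) range, remained in that fit. Without Mul1(−/−) replicate 2, 0 of the 6 genes were called lower and 0 higher, and without replicate 3, 5 lower and 1 higher. The part of the mitochondrial share and of the other differences in the results on desaturases and elongases was not tested. Fewer cells of a type and less RNA per cell cannot be told apart in such tissue samples.

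In 5 of the 6 desaturase and elongase genes, every Mul1(−/−) library was below every Mul1(+/+) library, as was the case for 41.0% of all genes in the table. For the remaining gene, Elovl7, every Mul1(−/−) library was above, as for 49.3% of all genes. By limma, 2 of the 6 were called lower, against 7.43% of the table, and 1 was called higher, against 16.7%. All 5 lower genes had an adjusted p under 0.05 in limma with all libraries in the fit, which Fads1, Fads2 and Fads6 did not keep with each library left out (highest adjusted p = 0.0736, 0.0501 and 0.0644). The plot of the normalized counts by library shows the groups apart in each of the 6 genes, with the narrowest gap for Fads2.

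**Figure D1:**
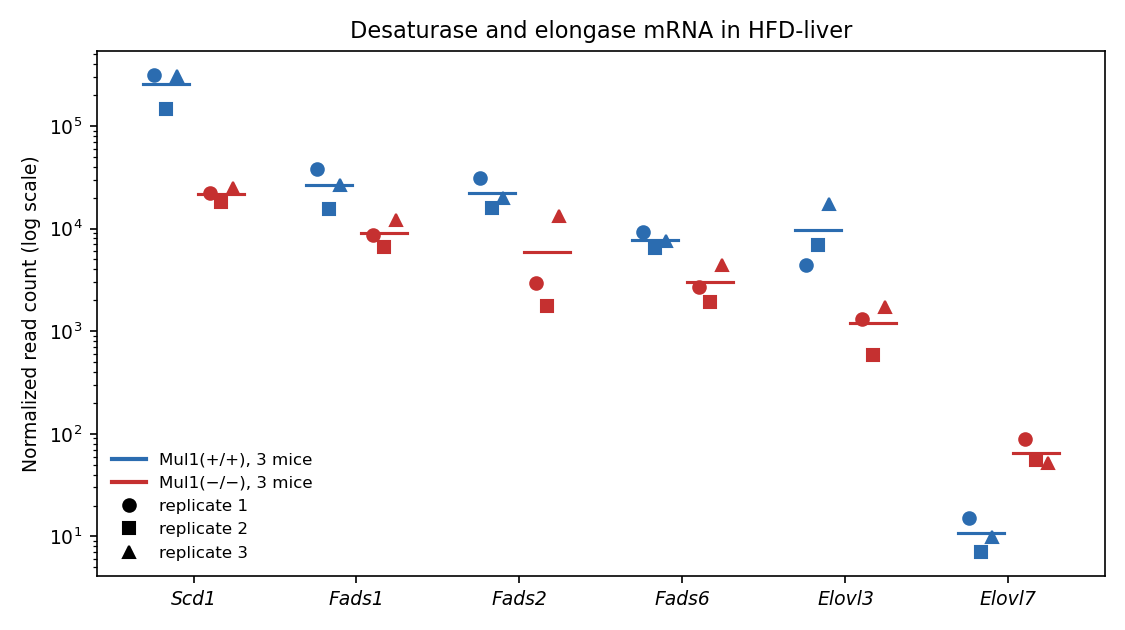
Normalized read counts of the 6 genes in the 3 Mul1(+/+) and 3 Mul1(−/−) HFD-liver libraries (log10 axis), with a point for each library and a line for the mean of each group. Scd1, Fads1, Fads2, Fads6 and Elovl3 lie lower in all Mul1(−/−) libraries and Elovl7 lies higher.

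Scd1 (ENSMUSG00000037071) encodes stearoyl-CoA desaturase. The gene lies at chr19:44394455-44407879 on the minus strand (GRCm38). Its normalized counts were 315901, 145295 and 304171 in the Mul1(+/+) libraries, against 22412, 18184 and 24664 in the Mul1(−/−) libraries. Mul1(+/+) replicate 2 was the lowest of its group and was still 5.89 times the highest Mul1(−/−) value. The group mean went from 255123 ± 95294 to 21753 ± 3290 (SD, n = 3 each), an 11.7-fold difference of means. On the log2 scale the change was −3.48 (standard error 0.44, 95% interval −4.45 to −2.51, adjusted p = 0.00207 from limma). Scd1 missed the threshold when Mul1(+/+) replicate 1 (log2 fold change −3.28) or Mul1(−/−) replicate 2 (−3.36) was left out. The coefficient of variation was 37.4% in Mul1(+/+) and 15.1% in Mul1(−/−) libraries, so the Mul1(−/−) values were the tighter group for this gene. Its reads numbered between 14848 and 28082 in the Mul1(−/−) libraries, and counting error is small beside the spread between mice. Of the windows of 50 bases in its longest transcript, 4.66% also occur in transcripts of other genes, most of them in those of its paralog Scd3, and a small part of its reads could have been divided with them.

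Fads1 and Fads2 encode the desaturases of polyunsaturated fatty acid synthesis and are neighbours on chromosome 19. Fads2 (ENSMUSG00000024665) lies at chr19:10062765-10101746 on the minus strand and Fads1 (ENSMUSG00000010663) at chr19:10182888-10196877 on the plus strand (GRCm38), so that their annotated starts are 81.1 kb apart and the genes are transcribed away from each other. For Fads1 the normalized counts were 37699, 15511 and 26320 in the Mul1(+/+) libraries, against 8676, 6599 and 12003 in the Mul1(−/−) libraries. The lowest Mul1(+/+) value was 1.29 times the highest Mul1(−/−) value. The means were 26510 ± 11095 and 9093 ± 2726 (SD, n = 3 each), a log2 fold change of −1.49 (standard error 0.46, 95% interval −2.51 to −0.48, adjusted p = 0.0159 from limma).

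For Fads2 the normalized counts were 30844, 15860 and 19933 in the Mul1(+/+) libraries, against 2933, 1761 and 13097 in the Mul1(−/−) libraries. The groups stayed apart by a factor of 1.21, and Mul1(−/−) replicate 3 stood at 7.44 times the lowest value of its own group, close to Mul1(+/+) replicate 2. The means were 22212 ± 7748 and 5930 ± 6234 (SD, n = 3 each), and the log2 fold change was −2.39 (standard error 0.68, 95% interval −3.89 to −0.89, adjusted p = 0.0132 from limma). The coefficient of variation of Fads2 among Mul1(−/−) mice was 105%. Without Mul1(−/−) replicate 3, the log2 fold change of Fads2 was −3.23 (adjusted p = 0.000383 from limma), that of Fads1 was −1.72 (adjusted p = 0.00562) and that of Fads6 was −1.75 (adjusted p = 0.00250), and all 5 lower genes passed the threshold. Other libraries moved these values the other way. Without Mul1(+/+) replicate 1, the log2 fold change was −1.20 for Fads1 (adjusted p = 0.0736 from limma) and −1.29 for Fads6 (adjusted p = 0.0644), and without Mul1(−/−) replicate 2 it was −1.79 for Fads2 (adjusted p = 0.0501).

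Fads6 (ENSMUSG00000044788) belongs to the desaturase family by its sequence and lies at chr11:115279622-115297663 on the minus strand (GRCm38). Normalized counts were 9160, 6405 and 7562 in the Mul1(+/+) libraries, against 2667, 1934 and 4455 in the Mul1(−/−) libraries. As for Fads2, Mul1(−/−) replicate 3 was the highest of its group, and the groups did not overlap. The means were 7709 ± 1383 and 3018 ± 1297 (SD, n = 3 each), a log2 fold change of −1.42 (standard error 0.43, 95% interval −2.39 to −0.46, adjusted p = 0.0157 from limma).

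Elovl3 (ENSMUSG00000038754) encodes an elongase of saturated and monounsaturated very long chain fatty acids and lies at chr19:46131897-46135694 on the plus strand (GRCm38). Its normalized counts were 4394, 6894 and 17408 in the Mul1(+/+) libraries, against 1300, 579 and 1708 in the Mul1(−/−) libraries. Among the Mul1(+/+) mice the highest value was 3.96 times the lowest, the widest spread of the 6 genes in that genotype, and the lowest of them was 2.57 times the highest Mul1(−/−) value. The means were 9566 ± 6906 and 1196 ± 572 (SD, n = 3 each), and the log2 fold change of −2.89 (adjusted p = 0.00701 from limma) had a standard error of 0.59 and a 95% interval of −4.21 to −1.58. It missed the threshold without any 1 of the Mul1(+/+) libraries (−3.33, −3.01 and −2.34 without replicates 1, 2 and 3) and without Mul1(−/−) replicate 2 (−2.44).

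Elovl7 (ENSMUSG00000021696), an elongase that also acts on long saturated chains, was the gene of the 6 that rose. It lies at chr13:108214404-108285683 on the plus strand (GRCm38). Normalized counts were 15.2, 7.08 and 9.80 in the Mul1(+/+) libraries, against 89.1, 55.1 and 51.8 in the Mul1(−/−) libraries. These stood for 18, 8 and 12 reads and for 61, 45 and 59 reads, so that counting error was a larger part of its value than for the other genes. The lowest Mul1(−/−) value was 3.42 times the highest Mul1(+/+) value, and replicate 1 was the highest of both groups. The means were 10.7 ± 4.12 and 65.4 ± 20.7 (SD, n = 3 each), a log2 fold change of 2.52 on the log2(value + 1) scale (standard error 0.43, 95% interval 1.56 to 3.48, adjusted p = 0.00591 from limma). The call was lost without any 1 of the Mul1(+/+) libraries (2.79, 2.28 and 2.49 without replicates 1, 2 and 3) and without Mul1(−/−) replicate 2 (2.62). The bile duct cell gene Epcam also rose, with 44.7, 83.3 and 53.9 normalized counts in Mul1(+/+) and 361, 268 and 204 in Mul1(−/−) replicates 1 to 3, and the part of bile duct cells in the Elovl7 values was not tested. The plot of the log2 fold changes sets the 6 intervals side by side.

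**Figure D2:**
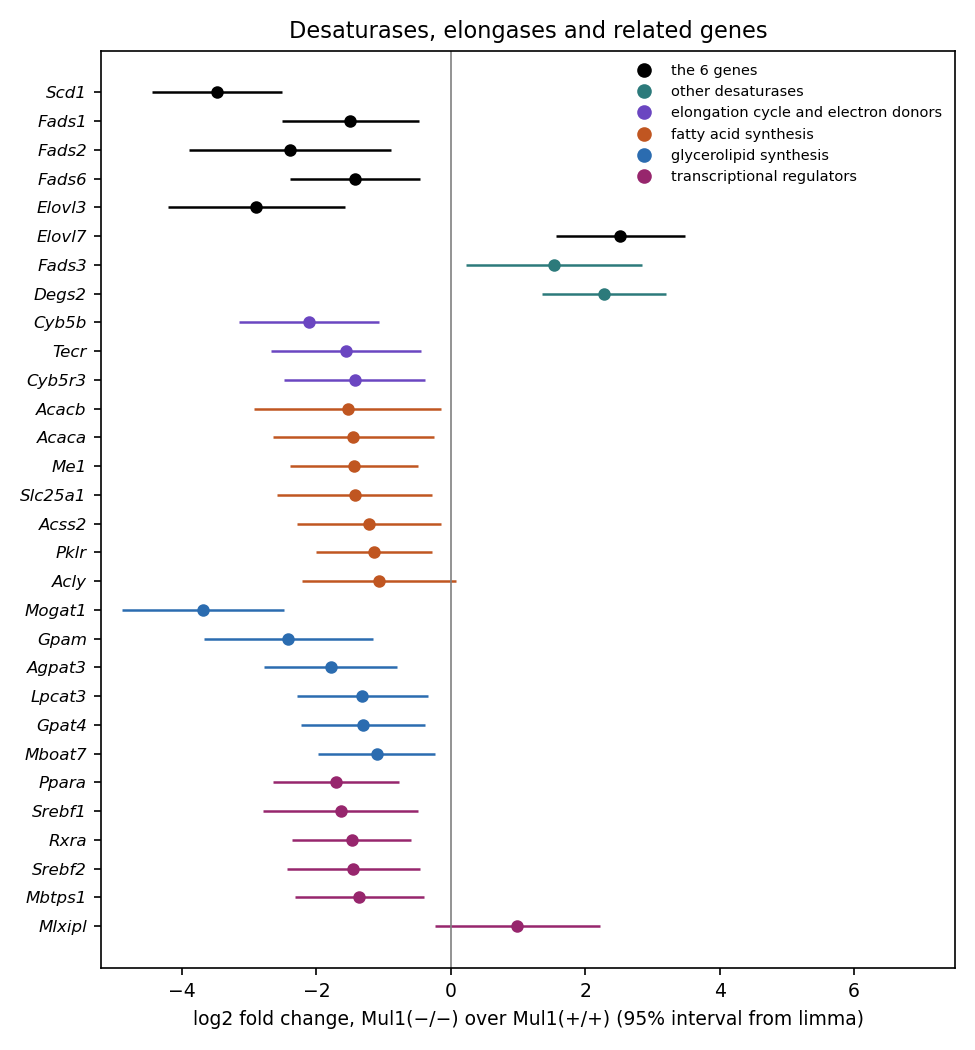
Log2 fold change, Mul1(−/−) against Mul1(+/+) HFD-liver, from limma on log2(normalized count + 1), with its 95% interval as a bar, for the 6 genes (black) and for the genes of 5 related lists that are in the table (colours). Among the 6 genes the values run from −3.48 for Scd1 to 2.52 for Elovl7, and none of their intervals includes 0.

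The promoters of Fads2, Fads6 and Elovl7 were read from RefSeq on GRCm38.p6, as the 300 bases around each gene's start, while Scd1, Fads1 and Elovl3 were not matched. They are shown because these genes of related function had fold changes in different directions. The letters searched, on both strands, were TCACNCCAC (a sterol regulatory element form), CCAAT (bound by NF-Y), GGGCGG (bound by Sp1), CACGTG (an E-box) and AGGTCA (a nuclear receptor motif), which 1.24%, 37.4%, 35.7%, 7.15% and 16.3% of 32851 promoters of the same length hold. The GGGCGG letters occur once in Fads2, once in Fads6 and 3 times in Elovl7, and AGGTCA occurs 2 times in Fads6. Windows of 30 bases are given below in the direction of the gene, with the match in capitals, which reads CCGCCC or TGACCT where the match is on the opposite strand.
Fads2, chr19:10101672-10101701: cgggcctagggtGGGCGGaggaaggggacc
Fads6, chr11:115297575-115297604: agatgcgtgactCCGCCCctccgctcctcc
Fads6, chr11:115297666-115297695: taggccccgcctAGGTCAcgggtcatggct
Fads6, chr11:115297614-115297643: cgcctcccacggTGACCTcaggctagtggt
Elovl7, chr13:108214242-108214271: tacccgcggcgaGGGCGGcagcgggagagg
Elovl7, chr13:108214317-108214346: aggcgggccgggGGGCGGtcccgggtgacg
Elovl7, chr13:108214375-108214404: accctaccgcctCCGCCCctcgcagcctgg
The Fads2 and Fads6 windows lie on the minus strand and those of Elovl7 on the plus strand. The RefSeq starts of Fads2 and Fads6 lie inside the GENCODE genes whose coordinates are given above, so the Fads2 window and 2 of the 3 Fads6 windows are upstream of the RefSeq start but within the GENCODE gene. None of the sterol regulatory element, CCAAT or E-box letters occurs in these 3 windows of 300 bases. The promoters are rich in G and C, at 67.0%, 67.3% and 74.0% for Fads2, Fads6 and Elovl7, and hold 23, 19 and 30 CpG. GGGCGG was thus present in Elovl7, which rose, and in Fads2 and Fads6, which had lower means.

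To compare the genes with each other, each normalized count was divided by the length of the merged exons in kb. Scd1 had the highest level per kb in all 6 libraries, Fads6 was in place 5 and Elovl7 in place 6 in all 6 by this length. The order below Scd1 depended on the length used. In Mul1(+/+) HFD-liver, the level per kb was 52151 ± 19480 for Scd1, 6741 ± 2351 for Fads2, 5509 ± 2306 for Fads1, 4843 ± 3497 for Elovl3, 1159 ± 208 for Fads6 and 2.66 ± 1.03 for Elovl7 (SD, n = 3 each). Fads2, Fads1 and Elovl3 changed places between libraries and did not differ beyond their spread, and Fads1 came before Fads2 with the median transcript length (29938 and 25270 per kb) and with the length of the longest transcript, a setting chosen after the data had been seen (7662 and 7051). The median over annotated transcripts is short for Scd1, at 0.75 kb, and put its level at 340163 in Mul1(+/+) and 29004 in Mul1(−/−) HFD-liver. By the median length, Fads6 (882) also lay above Elovl3 (689) in Mul1(−/−) HFD-liver, whereas Scd1 stayed the highest and Elovl7 the lowest in all 6 libraries.

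In Mul1(−/−) HFD-liver the level per kb was 4447 ± 672 for Scd1, 1890 ± 566 for Fads1, 1800 ± 1892 for Fads2, 606 ± 289 for Elovl3, 454 ± 195 for Fads6 and 16.3 ± 5.15 for Elovl7 (SD, n = 3 each). Even after its rise, Elovl7 was the lowest of the 6. Scd1 remained the highest.

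The make-up of the summed level per kb of the 6 genes, by merged exon length, differed between the genotypes. Scd1 made up 75.6%, 70.4% and 74.3% of this sum in the Mul1(+/+) libraries, against 54.8%, 59.8% and 38.6% in the Mul1(−/−) libraries. The share of Fads1 was 7.78% ± 1.32 in Mul1(+/+) and 21.6%, 22.0% and 19.1% in the Mul1(−/−) libraries. Fads6 went from 1.75% ± 0.477 to 4.87% ± 0.235 of the sum (SD, n = 3 each). The share of Elovl3 was 7.14% ± 4.09 and 6.41% ± 1.59, within the spread between mice. Fads2 took 10.7% and 8.59% in Mul1(−/−) replicates 1 and 2 but 30.4% in replicate 3, against 9.87% ± 2.29 in Mul1(+/+) libraries. The plot of these shares shows the smaller Scd1 and the larger Fads1 share in each Mul1(−/−) library, and the large Fads2 share of replicate 3.

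**Figure D3:**
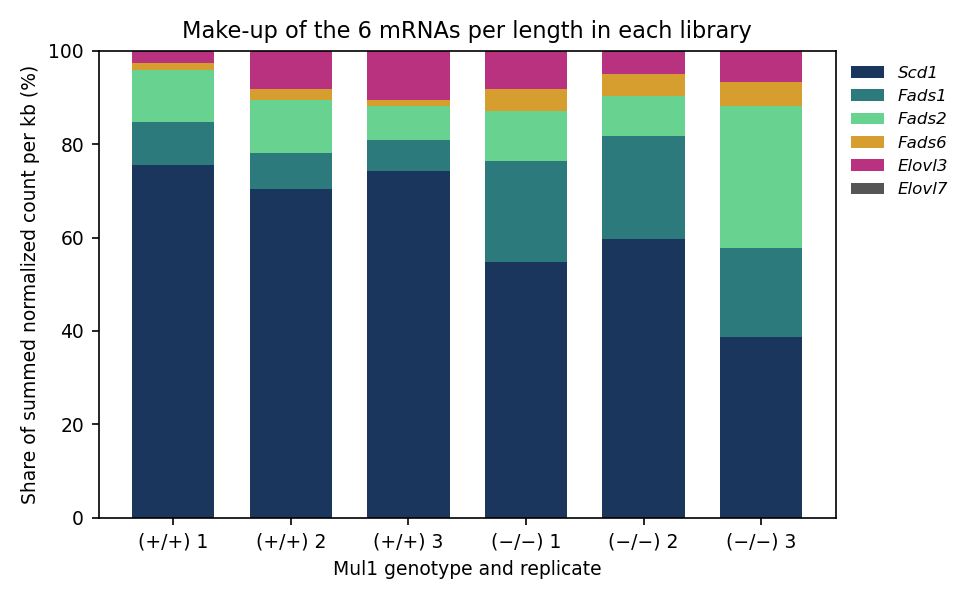
Share of each gene in the summed level per kb of the 6 genes, in percent, as a stacked bar for each library. Scd1 fills 70.4% to 75.6% of the Mul1(+/+) bars and 38.6% to 59.8% of the Mul1(−/−) bars.

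A ratio of 2 genes within a library does not move with the scaling of that library, and the ratios of all 15 pairs were compared between the genotypes. In 7 pairs the ratios of the groups did not overlap, and 5 of these are the pairs with Elovl7, the gene that moved the other way. Those 5 could not have overlapped, because both genes of each pair were fully separated between the groups in opposite directions. They add nothing to the values of the single genes. Of the 10 pairs among the 5 lower genes, 2 did not overlap, Scd1 to Fads1 and Scd1 to Fads6. None of the 15 passed an adjusted p under 0.05. The smallest adjusted p over the 15 pairs was 0.214, from exact two-sided permutation tests whose smallest p is 0.1 with n = 3 per group.

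The ratio of Scd1 to Fads1 normalized counts was 8.38, 9.37 and 11.6 in the Mul1(+/+) libraries, against 2.58, 2.76 and 2.05 in the Mul1(−/−) libraries. It was 3.96-fold lower in Mul1(−/−) HFD-liver, a difference of −1.98 on the log2 scale (standard error 0.19). The ratio of Scd1 to Fads6 was 4.16-fold lower, a log2 difference of −2.06 (standard error 0.34). For Scd1 to Elovl3, both of which fell, the log2 difference was −0.59 (standard error 0.72; exact two-sided permutation test, p = 0.5), and for Scd1 to Fads2 it was −1.09 (standard error 0.79, exact permutation p = 0.3), in both cases with overlap.

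Fads1 and Fads2 act in 1 pathway, and their ratio of normalized counts was 1.22, 0.978 and 1.32 in the Mul1(+/+) libraries, against 2.96, 3.75 and 0.916 in the Mul1(−/−) libraries. Mul1(−/−) replicates 1 and 2 lay above all Mul1(+/+) libraries and replicate 3 below them, and the log2 difference of 0.90 (standard error 0.64) gave an exact permutation p of 0.4. The ratio of Fads1 to Fads6 differed least, by −0.07 on the log2 scale (standard error 0.25, exact permutation p = 0.8).

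The 5 lower genes differed in where Mul1(−/−) replicate 3 lay. On the log2 scale, the distance from the mean of Mul1(−/−) replicates 1 and 2 to the Mul1(+/+) mean was set to 100%. Replicate 3 lay 8.08% of the way for Scd1, 30.3% for Elovl3, 38.8% for Fads1, 55.6% for Fads6 and 78.2% for Fads2. The position for Elovl7 was 16.1% and for Mul1 itself 47.3%. Over the 1456 genes of the table that were lower by more than 1 log2 unit in replicates 1 and 2, the median position was 36.2%, 3.71% of these genes lay further along than Fads2, and 25.6% lay less far along than Scd1. Fads2 was thus near the end of that distribution, and Scd1 in its lower part. The plot of the differences by library shows the Fads2 and Fads6 points of replicate 3 nearer to the Mul1(+/+) mean and its Scd1 point beside those of the other Mul1(−/−) libraries.

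**Figure D4:**
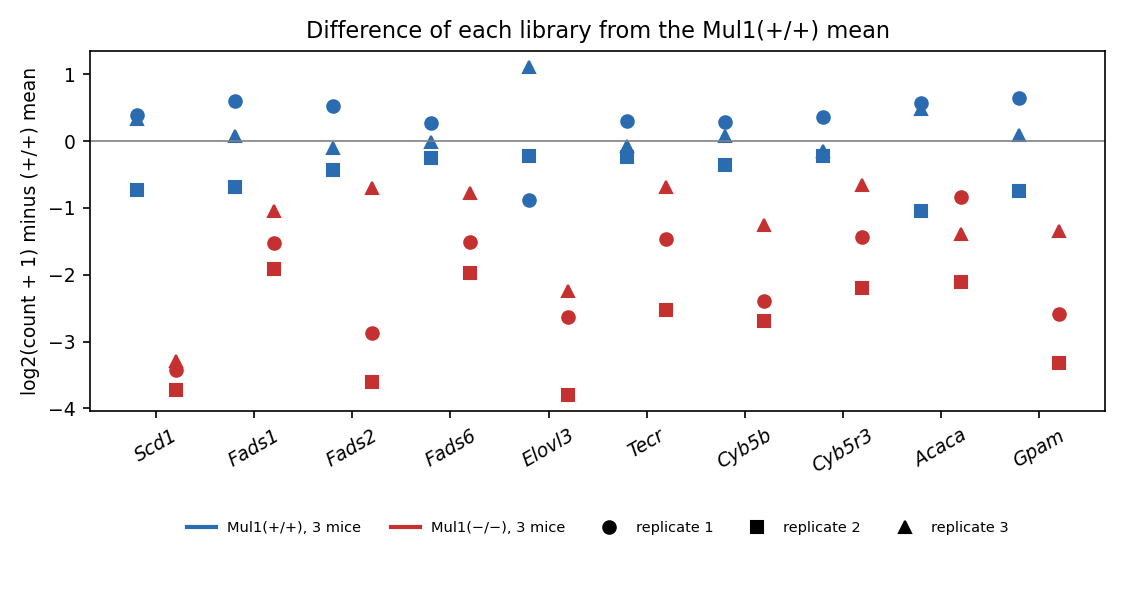
Difference of each library from the Mul1(+/+) mean, on the log2(normalized count + 1) scale, for the 5 lower genes and for Tecr, Cyb5b, Cyb5r3, Acaca and Gpam, with blue points for Mul1(+/+) and red points for Mul1(−/−) mice. Replicate 3 lies 78.2% of the way from replicates 1 and 2 to the Mul1(+/+) mean for Fads2 and 8.08% for Scd1.

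Over the 6 libraries, correlations with other genes were taken for genes with a mean of at least 100 and are given as a description, because the libraries share their scaling and the group difference alone gives a high r. Among the genes most like Scd1 were Diaph1 (r = 0.999) and Dpy19l3 (0.998). Among those most like Fads2 were Dpys (0.998) and Aqp8 (0.996). The genes most like Fads1 were Magee1 (0.997), Hnrnpa0 (0.995) and Man1c1 (0.992), and those most like Fads6 were Zfand3, Klf12 and Zfp790 (each 0.999). Elovl3 was most like Epha2 (0.996), Vipr1 (0.983) and Serinc2 (0.982), and Elovl7 most like Arhgef2 (0.985), Igfbp2 (0.984) and Abcc5 (0.983). None of the genes named here is another of the 6 or on the lipid lists described next.

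Deviations from the group means, which leave out the genotype difference, had r = 0.986 for Fads2 with Fads6, 0.910 for Scd1 with Fads1, 0.832 for Fads1 with Fads6, 0.762 for Fads1 with Fads2 and 0.322 for Scd1 with Elovl3, each over 6 libraries. These values are also a description only, because the deviations keep the scaling of each library. Those of Fads2 rest largely on Mul1(−/−) replicate 3 (13097 normalized counts, against 2933 and 1761 in replicates 1 and 2). By this measure the genes nearest to Fads2 were Inpp5b (0.999), Lcp1 (0.998) and Pgrmc2 (0.997), those nearest to Scd1 were Diaph1 (0.990), Gabbr2 (0.987) and Atmin (0.986), and those nearest to Elovl3 were Epha2 (0.989), Lhx6 (0.978) and Apoc2 (0.955).

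The other genes of the families were sparse in the table. Of 6 other desaturases, Degs2 and Fads3 were in it. Degs2, which makes phytoceramide, rose from 11.7 ± 3.10 to 61.4 ± 20.2 (SD, n = 3 each; log2 fold change 2.28, adjusted p = 0.00650 from limma), a level as low as that of Elovl7. Fads3, which lies 2655 bases from Fads2 on the opposite strand, had 177, 132 and 311 normalized counts in Mul1(+/+) and 1112, 677 and 241 in Mul1(−/−) replicates 1 to 3. The Fads3 groups overlapped through Mul1(−/−) replicate 3, the library in which Fads2 was highest among Mul1(−/−) mice, and its log2 fold change was 1.54 (adjusted p = 0.0295 from limma, not called). None of the other 5 elongases, Elovl1, Elovl2, Elovl4, Elovl5 and Elovl6, was in the table, which says only that they had not been selected into it.

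Desaturases draw electrons through cytochrome b5 and its reductase, and elongation needs a dehydratase and reductases after the condensation. Of 12 such genes 3 were in the table, all with lower means, as had 43.2% of the table. By limma 1 was called lower, against 7.43% of the table. The median log2 fold change of the 3 was −1.56. Because the table was selected for log2 fold changes of 1 or more in size, the median of a list of lower genes is set largely by that selection. Cyb5b, the cytochrome b5 of the outer mitochondrial membrane, fell from 25622 ± 5607 to 6423 ± 3617 (SD, n = 3 each; log2 fold change −2.11, adjusted p = 0.00798 from limma). The log2 fold change was −1.43 for Cyb5r3, a cytochrome b5 reductase (adjusted p = 0.0195 from limma), and −1.56 for Tecr, the reductase that completes each elongation round (adjusted p = 0.0185 from limma). Neither of these was called. The position of Mul1(−/−) replicate 3 was 65.5% for Tecr, 50.7% for Cyb5b and 63.5% for Cyb5r3, between those of Fads1 and Fads2.

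Upstream of the 6 enzymes, the table held 7 of 11 fatty acid synthesis genes, each with a lower mean, but none was called by limma, and 6 had an adjusted p under 0.05. Their median log2 fold change was −1.43, a size set largely by the selection of the table, in which 43.2% of the genes had lower means. Acacb, the acetyl-CoA carboxylase at the mitochondrial surface, had −1.54 (adjusted p = 0.0359 from limma), Acaca, its cytosolic form, −1.45 (0.0275), Me1, which yields NADPH, −1.44 (0.0149) and the citrate carrier Slc25a1 −1.43 (0.0253). Of 15 regulators, 6 were in the table, 5 of them with lower means. Among the 6, 1 was called lower, against 7.43% of the table. It was Ppara (log2 fold change −1.71, adjusted p = 0.00977 from limma), the fatty acid-sensing receptor. Srebf1, the gene of SREBP-1, had −1.64 (adjusted p = 0.0173 from limma), Rxra, the partner of many nuclear receptors, −1.48 (0.0118) and Srebf2 −1.45 (0.0163).

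Mul1(−/−) replicate 3 did not hold the same place across these genes and Gpam, a glycerolipid synthesis gene. Its position was 5.58% for Acaca, near that of Scd1. For Acly, Acacb and Srebf1 it was −60.5%, −57.4% and −64.0%, that is, lower than replicates 1 and 2. It was 77.7% for Slc25a1, near that of Fads2 (78.2%), and 54.2% for Gpam. For Acaca, Acacb and Acly the Mul1(+/+) and Mul1(−/−) values overlapped, so that their positions are less certain.

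Downstream, 6 of 15 glycerolipid synthesis genes were in the table, all with lower means, as had 43.2% of the table. Their median log2 fold change was −1.55, again set largely by the selection. By limma 3 were called lower, against 7.43% of the table. These were Mogat1, a monoacylglycerol acyltransferase (log2 fold change −3.69, adjusted p = 0.00351 from limma), Gpam, the mitochondrial glycerol-3-phosphate acyltransferase (−2.42, 0.00889), and Agpat3 (−1.79, 0.00999). Lpcat3, which places polyunsaturated chains in phospholipids, had −1.32 and was not called. Among 9 acyl-CoA synthetases, 2 were in the table, Slc27a4 (−1.76, adjusted p = 0.0119 from limma) and Acsl1 (−1.04, 0.0312), and neither was called.

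Liver expression of Elovl3 is known to depend on sex and time of day, and genes with those properties were looked up beside it. Of 5 sex chromosome genes, none was in the table. The table held 4 of 12 male-biased liver genes, of which 3 had higher and 1 a lower mean, with 1 called higher, Selenbp2 (log2 fold change 3.86, adjusted p = 0.00599 from limma). It held 6 of 14 female-biased genes, 5 with lower and 1 with a higher mean, with Cyp2b9 among the 2 called lower (−2.90, adjusted p = 0.00913 from limma) and Cyp2a4 called higher (5.26, 0.00179). It held 6 of 18 clock genes, 5 with lower and 1 with a higher mean, and none was called (3 had an adjusted p under 0.05 in limma). Of all genes in the table, 16.7% were called higher and 7.43% lower.

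The Mul1(+/+) mice differed in many of these genes, in no single order. Mul1(+/+) replicates 1 to 3, with 4394, 6894 and 17408 normalized counts of Elovl3, had 71105, 281086 and 386908 of the male-biased Mup20, 12308, 7008 and 1424 of the female-biased Cyp2b9, and 150, 204 and 766 of the clock gene Arntl. Replicate 3, the highest for Elovl3, was also the highest for 2 of the 4 male-biased genes (Mup20 and Cyp4a12b) and for 2 of the 6 clock genes (Arntl and Clock), and the lowest for 5 of the 6 female-biased genes, Acot3 being the exception. Replicate 1, the lowest for Elovl3 in this group, was the lowest for all 4 male-biased and the highest for all 6 female-biased genes. The other male-biased genes, Selenbp2 and Cyp2d9, were highest in replicate 2, and 3 of the clock genes (Hlf, Cry2 and Per2) were highest in replicate 1. In Mul1(−/−) replicates 1 to 3 the values were 567055, 788263 and 479843 for Mup20, 779, 535 and 713 for Cyp2b9, and 65.8, 93.1 and 209 for Arntl. Mup20, Selenbp2 and the Cyp2 genes belong to families of near-identical genes that may have shared reads, and their values are uncertain. The Mup20 and Cyp2b9 groups did not overlap, whereas the Arntl groups did. The part of sex and of the time of sampling in the values of Elovl3 and the other desaturase and elongase genes was not tested. Without Mul1(+/+) replicate 3, the log2 fold change of Elovl3 was −2.34 and was no longer called.

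Pitx3, a gene that overlaps Elovl3 on the opposite strand, shares 10 bases of exon with it. Its normalized counts were 25.3, 52.3 and 491 in the Mul1(+/+) libraries, against 5.84, 6.12 and 5.27 in the Mul1(−/−) libraries (log2 fold change −3.71, standard error 0.88, adjusted p = 0.00891 from limma). The Mul1(−/−) values of Pitx3 rest on few reads, 4 at the lowest, which limits its fold change. The counts of Pitx3 were 0.309% to 2.82% of those of Elovl3, and both genes were highest in Mul1(+/+) replicate 3. These bases are 0.655% of the exons of Pitx3 and 0.506% of those of Elovl3. Whether counting used strand is not given in the sources used here, and without it reads on the shared bases cannot be told apart. The plot of these genes beside Elovl3 shows the order of the Mul1(+/+) mice in each.

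**Figure D5:**
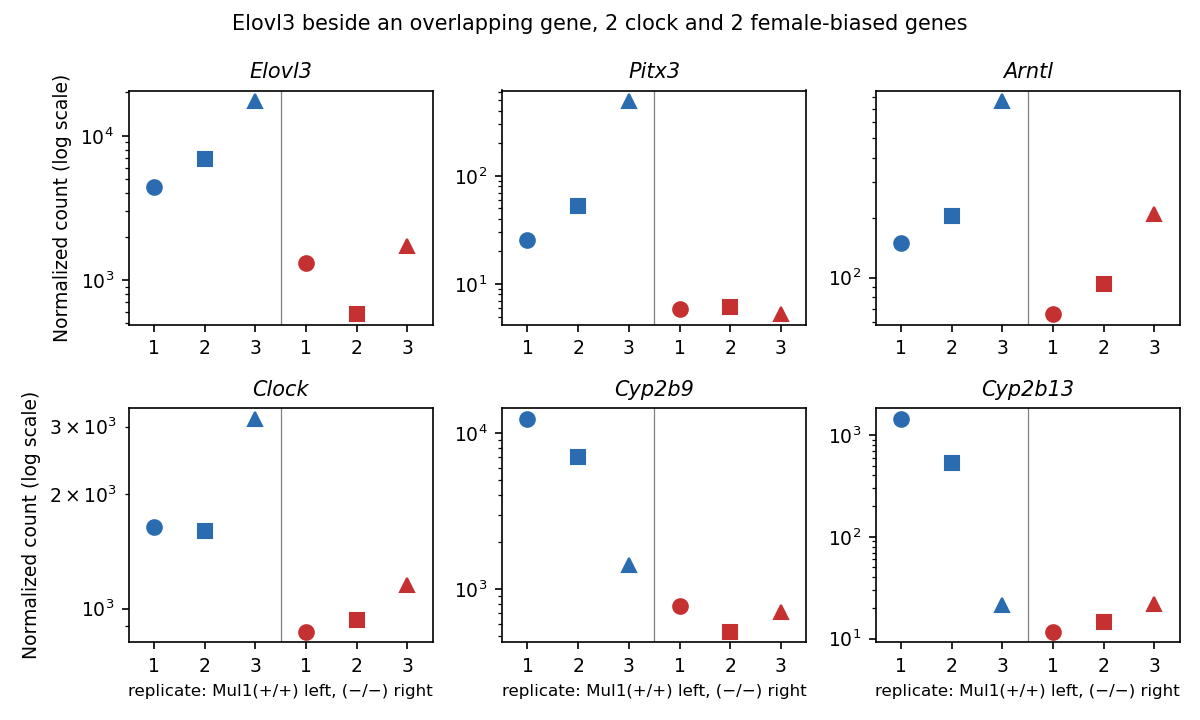
Normalized read counts of Elovl3, the overlapping gene Pitx3, the clock genes Arntl and Clock and the female-biased genes Cyp2b9 and Cyp2b13 in each library (log10 axis), with a point for each library. The clock and female-biased genes shown were chosen after their values had been seen, and other genes of those lists ordered the mice otherwise. In the Mul1(+/+) group, replicate 3 is the highest for Elovl3 (17408), Pitx3 (491) and Arntl (766) and the lowest for Cyp2b9 (1424).

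By position, 4 of the 6 genes lie on chromosome 19 and none on chromosome 4, which carries Mul1. Of the 119 genes of the table on chromosome 19, 52.9% had lower means in Mul1(−/−) HFD-liver, against 43.2% of the whole table. The neighbours within 100 kb that were in the table went in both directions, and those named here were chosen after their values had been seen. Beside Fads1 lay Myrf (log2 fold change −2.21, adjusted p = 0.00838 from limma) and Tmem258 (1.02, 0.0298), and beside Fads6 lay Fdxr (1.31, adjusted p = 0.0337 from limma), whose nearest base is 2572 bases away. No neighbour of Scd1 within that distance was in the table.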

How the data were processed

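A service provider sequenced and analysed liver mRNA from 3 mice of each genotype after 16 weeks on HFD. The authors deposited 1 table of 3542 genes with normalized read counts, made by dividing the counts of each library by 1 factor. The genome build, aligner, counter and use of strand are not given in the sources used here. Also deposited were the log2 fold change, the p-value and its adjusted form from the authors' Wald test in DESeq2. These were read only to learn how genes were selected: in all 3542 the adjusted p-value does not exceed 0.05 and the log2 fold change is 1 or more in size. The value of 1 read ranged from 0.817 to 1.46 between libraries, and low values were whole multiples of it within 0.1 read (100% in each library). The reads on the table's genes came to between 11932163 and 15385822 per library, which is part of its depth.

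A pseudocount of 1 was added to the normalized counts, log2 was taken and limma 3.58.1 in R 4.3.3 was fitted over all 3542 genes without a filter and with genotype as the only term. Benjamini-Hochberg adjustment was made over the table. Genes were called at an adjusted p below 0.01 and a log2 fold change above 1 in size, the limits in the study's methods. With a pseudocount, fold changes of genes with few reads come out too small. Exact permutation tests were two-sided, and limma was tested on simulated data. Nothing says which mice were littermates, and the p-values measure only the spread between these samples. Other values were computed in Python 3.11.15 (scipy 1.17.1, numpy 2.4.6, pandas 2.3.3) and plotted with matplotlib 3.10.9. GENCODE M21 (GRCm38) gave coordinates and merged exon lengths, with 3529 identifiers matched and 13 unmatched, and RefSeq gave promoters.

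The 6 genes, the gene lists and the tests were chosen with earlier results of these data known. The genes named are the 6, Mul1, every listed desaturase, elongase and elongation or electron donor gene in the table, at most the 4 largest changes of each other list, the 3 genes most like each of the 6 by each measure of likeness, and overlapping genes. Acly, Clock, Acot3, Epcam and the neighbours in position were named after their values had been seen. Alternatives were other pseudocounts, a filter on the mean, limma-trend, rescaled libraries, another limit on the adjusted p-value, the replicate number as a block, each library left out in turn and other gene lengths. Count tests on recovered reads and a comparison of the proteins were planned and are not reported here, nor are a few genes that the rule names and 1 gene list.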

Additional observations from a re-analysis of the deposited data

How the results depend on the processing

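The 6 genes kept their direction in all 89 fold changes computed under the alternatives, but most of these could not have reversed. With limma-trend, the replicate block, the filter or the other limit, the fold change of a gene stays the same. A changed pseudocount or a left-out library could not turn it round, because the Mul1(+/+) and Mul1(−/−) values of each gene were fully separated. Only rescaling the libraries could have reversed a direction, and it did not. The cause of the changes in calls was not tested. Against 2 genes called lower by limma as reported, 5 were called with limma-trend, 4 after rescaling by the median ratio (Fads1 and Fads6 added), 4 after rescaling by the table's total (Fads1 and Fads2 added) and 5 with an adjusted p limit of 0.05. With a filter on a mean of at least 50, 0 of the genes was called higher, against 1, because Elovl7 was removed. Over the table, 854 genes were called as reported, against 1433 with a pseudocount of 8, 1869 with limma-trend, 1343 after rescaling by the table's total and 3380 with the limit of 0.05. The lower share of the called genes was 30.8%, and 81.4%, 53.9% and 19.4% after rescaling by the median ratio, the total, and the total without the mitochondrial genome, and the median log2 fold change of all genes, 1.12, shifted by −0.66, −0.30 and 0.04.

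Same-numbered libraries correlated by 0.02, 0.35 and 0.05 in their deviations. Replicates 1 and 3 correlated more highly with another number (0.13), whereas replicate 2 did not (at most −0.13 with another number). Whether the numbers pair the mice cannot be told from so few values. With the replicate block, 0 genes of the table passed in limma, hence 0 of the 6 in either direction, while 3314 genes of the table had an unadjusted p under 0.05, among them 5 lower and 1 higher of the 6. With each library left out in turn, between 0 and 5 of the 6 genes were called lower, between 0 and 1 higher, and between 10 and 2673 genes of the table were called. No gene of the 6 was called lower without Mul1(+/+) replicate 1 or Mul1(−/−) replicate 2, with 4 and 5 at an unadjusted p under 0.05, and 5 were called without Mul1(−/−) replicate 3. Scd1 was called in 4 of these 6 fits (log2 fold change −3.84 to −3.28), Elovl3 in 2 (−3.33 to −2.34) and Elovl7 in 2 (2.28 to 2.79), and Fads1 (−1.84 to −1.20), Fads2 (−3.23 to −1.79) and Fads6 (−1.75 to −1.15) in 1 each. The low depth of Elovl7, at most 18 reads in a Mul1(+/+) library, limits its fold change.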
